A study of Homo sapiens with 12 samples.

Results

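The genes described here are 10 transcription factors that direct early B-cell development: PAX5, EBF1, IKZF1, IKZF3, TCF3, BACH2, IRF4, IRF8, FOXO1 and ERG. They were selected by gene name, with earlier results of these data known, and read from a table of raw read counts for 59611 gene symbols. All 10 were in the table, and all 10 were among the 15218 genes with enough counts to be tested.

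B-cell commitment is built up in layers. TCF3, an E protein that binds DNA at E-boxes, and EBF1, a zinc-knuckle factor that opens B-lineage chromatin, switch on PAX5, which then holds the B-cell identity and represses genes of other lineages. The Ikaros zinc-finger proteins IKZF1 and IKZF3, the interferon regulatory factors IRF4 and IRF8, FOXO1 and BACH2 act at the pre-B stage, where proliferation driven by the pre-B-cell receptor and interleukin signals gives way to immunoglobulin light-chain rearrangement. ERG is an ETS-family factor of blood stem cells and B progenitors. Loss or rearrangement of PAX5, IKZF1, EBF1, TCF3 and ERG is recurrent in B-lineage acute lymphoblastic leukaemia.

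Poly-A-selected, stranded RNA-seq libraries had been made from 697 and KOPN-8, both human lines of that leukaemia. As background, KOPN-8 carries a rearrangement of KMT2A. Each line was represented by cells that had received an empty guide-RNA vector and are labelled wild type for SETD2, and by 1 clone that had received a SETD2 guide and is labelled heterozygous knockout (clone BM_B of 697 and clone BA of KOPN-8). SETD2 is the histone methyltransferase that marks the bodies of transcribed genes.

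The 4 groups had 3 libraries each, which the labels call biological replicates. How the cultures were kept apart is not stated, and p-values here reflect only the spread among libraries. With 1 edited clone a line, the edit and any other property of that clone cannot be told apart. Whether the control cells are themselves a clone is not stated, and no parent line was analysed here. In bulk RNA, fewer expressing cells and less RNA per cell cannot be told apart either.

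Library totals ran from 10378769 to 18278662 counts. Levels are given in CPM, counts scaled to a common library size after trimmed-mean-of-M-values scaling. SETD2 itself stood at 156 to 169 CPM in control 697, 207 to 238 in its edited clone, 159 to 177 in KOPN-8 controls and 151 to 162 in the KOPN-8 clone. SETD2 was thus called higher in edited 697 (log2 change 0.44, edgeR adjusted p = 1.03e-04), was not called in edited KOPN-8 (-0.10, edgeR adjusted p = 0.309), and its changes differed by -0.54 (edgeR adjusted p = 2.25e-04). Gene-level counts do not tell edited from unedited transcripts, so these values do not check the genotype labels. The cause of the SETD2 rise in edited 697 was not tested. The line labels were checked on HOXA9, which had 0 counts in 697 and 147 CPM in control KOPN-8. Of the 7 B-lineage markers in the table, none was at 0 in any group, and their summed level was 3121 to 4174 CPM over the 12 libraries. Single markers were low in one line: MME averaged 3.71 CPM in control 697, and DNTT 2.02 CPM in control KOPN-8. CD3D was at 0 in all groups, and GATA1, HBA1, HBB and PF4 likewise. The 6 T-cell markers summed to at most 0.0753 CPM in 697, and to 24.4 to 28.3 CPM in control KOPN-8, against 12 to 15.4 CPM in the KOPN-8 clone, nearly all of it CD7. The 8 myeloid markers summed to 8.61 to 13.9 CPM in 697 and 38.5 to 49.3 CPM in KOPN-8. Most of it was CEBPA in 697, where CD33 had 0 counts, and CD33 in KOPN-8. In edited KOPN-8 CD33 was lower (-0.29, edgeR adjusted p = 0.0314) and LYZ higher, at 0.522 against 2.97 CPM (2.48, edgeR adjusted p = 2.88e-05). The part of these markers in the results was not tested.

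In each line most of the factors were called higher in the edited clone, and 5 of the 10 were in both. In 697, 7 of the 10 rose and none fell by the edgeR quasi-likelihood test at an adjusted p under 0.05, where 9.45% of all genes tested were called, 4.85% higher and 4.60% lower. DESeq2 called 7 higher and 0 lower, and at an unadjusted p under 0.05 the edgeR counts were also 7 and 0. In KOPN-8, 6 rose and 1 fell, where 28.7% of all genes tested were called, 11.5% higher and 17.2% lower. EBF1, IKZF1, BACH2, IRF4 and IRF8 rose in both lines; of all genes tested, 0.677% did so. None of the 10 fell in both by edgeR, as 1.09% of all genes tested did. ERG was called in opposite directions, PAX5 and FOXO1 were called in one line each, and IKZF3 and TCF3 in neither. Thus 8 were called in at least 1 line, against 34.6% of all genes tested. The libraries of edited clone and control did not overlap for 9 factors in 697, where 24.1% of all genes tested did not, and for 7 in KOPN-8, where 45.1% did not. Because the factors were chosen with earlier results of these data known, their shares beside those of all genes are no independent evidence. The called rises ran from a log2 change of 0.29 (EBF1) to 0.62 (IRF8) in 697. In KOPN-8 they ran from 0.22 (IRF4) to 0.46 (IRF8). Over all 10 factors, called or not, the median log2 change was 0.36 in 697 and 0.27 in KOPN-8, against 0.00 over all genes tested in each line. Without regard to sign, the medians of the 10 were 0.36 and 0.33, against 0.14 and 0.21 over all genes tested.

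**Figure D1:**
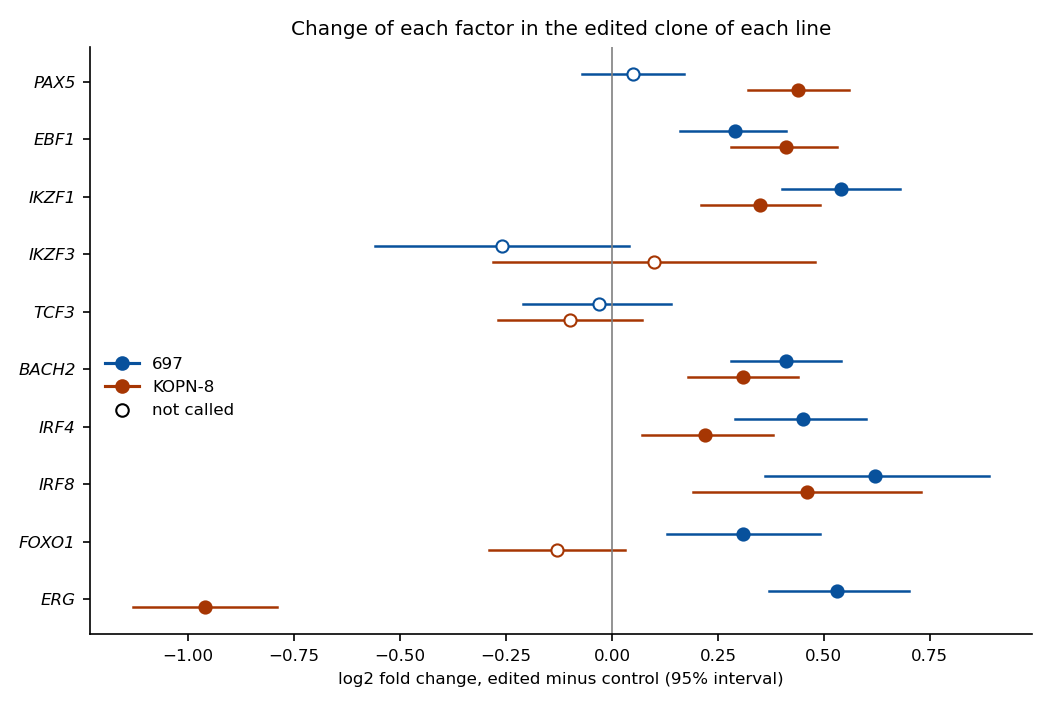
Log2 fold change of each factor, edited clone minus control (x axis), with 95% intervals, in 697 (blue) and KOPN-8 (brown). Filled points passed an adjusted p under 0.05 in edgeR's quasi-likelihood test and open points did not. EBF1, IKZF1, BACH2, IRF4 and IRF8, which rose in both lines, lie right of 0 in both colours. ERG lies at 0.53 in 697 and -0.96 in KOPN-8.

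The KOPN-8 change differed from the 697 change for 3 of the 10 factors, where 19.5% of all genes tested were called. PAX5 was higher by this measure, a direction in which 7.46% of all genes tested were called, and FOXO1 and ERG were lower, as 12.1% were. The lines have separate controls, but this contrast uses both controls again and is no independent evidence beside the changes within each line. For the other 7 factors a difference between the lines was not detected, with log2 differences from -0.22 for IRF4 to 0.36 for IKZF3.

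Promoter windows are shown for EBF1, which rose in both lines, for PAX5 and FOXO1, whose change differed between the lines, and for ERG, whose change reversed. They are the 250 bases before an annotated start, from RefSeq on GRCh38.p14, all on the minus strand and written 5′ to 3′ towards the gene, and hold no annotated exon base. Capitals in the first 3 mark the E-box CANNTG that TCF3 and other E proteins bind, and in the last a tandem interferon regulatory factor half-site (GAAA, any 2 bases, GAAA). The submitters aligned to hg19, so these coordinates belong to the RefSeq table alone.
EBF1 chr5:159097957-159098206: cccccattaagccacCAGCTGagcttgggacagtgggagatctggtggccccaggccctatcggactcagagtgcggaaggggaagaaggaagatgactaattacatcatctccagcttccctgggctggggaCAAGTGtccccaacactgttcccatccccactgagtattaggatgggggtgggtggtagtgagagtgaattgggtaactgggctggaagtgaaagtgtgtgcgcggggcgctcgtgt
PAX5 chr9:37034269-37034518: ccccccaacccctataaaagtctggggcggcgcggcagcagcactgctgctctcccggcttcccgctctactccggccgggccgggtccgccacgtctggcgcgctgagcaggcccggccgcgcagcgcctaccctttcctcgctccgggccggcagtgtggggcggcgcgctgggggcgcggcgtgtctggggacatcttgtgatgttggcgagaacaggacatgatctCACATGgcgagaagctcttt
ERG chr21:38660668-38660917: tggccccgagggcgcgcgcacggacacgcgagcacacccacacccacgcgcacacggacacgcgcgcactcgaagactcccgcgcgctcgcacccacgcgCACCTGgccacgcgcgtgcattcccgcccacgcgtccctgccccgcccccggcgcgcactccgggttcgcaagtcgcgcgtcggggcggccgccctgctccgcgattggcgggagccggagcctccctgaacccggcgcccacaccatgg
FOXO1 chr13:40666642-40666891: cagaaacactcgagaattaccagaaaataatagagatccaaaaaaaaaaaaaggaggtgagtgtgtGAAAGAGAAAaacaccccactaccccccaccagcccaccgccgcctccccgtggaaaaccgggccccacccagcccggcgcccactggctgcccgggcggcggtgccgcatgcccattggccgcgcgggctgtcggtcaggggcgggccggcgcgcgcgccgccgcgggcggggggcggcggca

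EBF1's window held 2 E-boxes, CAGCTG and CAAGTG, which begin 235 and 117 bases before the start. PAX5 held CACATG at 20 bases and ERG CACCTG at 150 bases before the start. An E-box on either strand was found in 61.8% of all 34788 promoter windows of this length, so most promoters hold these letters. EBF1's window also held the Ikaros core TGGGAA on the other strand, at 99 bases, a motif in 20.8% of all windows, and an ETS-IRF composite (GGAA, any 2 bases, GAAA) at 33 bases, found in 2.41%. The Ikaros core was not particular to EBF1: windows of IKZF1, IRF4 and IRF8 held it, as did an ERG window not shown. The tandem half-site of FOXO1 lies 184 bases before its start, and 3.02% of all windows held one. The windows of BACH2 and TCF3 matched none of these, nor the EBF site (TCCC, any 2 bases, GGGA), the ETS core CGGAAGT, the FOXO site TGTTTAC or the MARE half-site TGAGTCA, and of the 10 factors only IKZF3 was not matched to a window. RefSeq lists 4 start windows for ERG, and gene-level counts do not say which start was used. A match describes the letters only.

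EBF1, on chromosome 5, is the factor without which B-cell progenitors do not form. It stood at 257, 231 and 229 CPM in the 3 control libraries of 697 and at 292, 295 and 286 in the edited clone. In KOPN-8 the controls stood at 201, 194 and 189 CPM and the edited libraries at 257, 270 and 247 CPM. The edited libraries were all above the controls in both lines. EBF1 rose by a log2 change of 0.29 (SE 0.0648, edgeR adjusted p = 0.00482) in 697 and of 0.41 (SE 0.0648, edgeR adjusted p = 2.71e-05) in KOPN-8, a rise of 239 ± 16.0 to 291 ± 4.50 CPM and of 195 ± 6.34 to 258 ± 11.6 CPM (SD, n = 3). The KOPN-8 libraries were below those of 697 among controls and among edited clones, and control KOPN-8 was lower than control 697 by a log2 difference of -0.29 (edgeR adjusted p = 2.76e-04).

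PAX5, on chromosome 9, encodes the paired-box factor of B-cell identity. Its control libraries read 563, 591 and 588 CPM in 697 and 559, 548 and 604 in KOPN-8. The edited libraries read 607, 599 and 599 CPM in 697 and 787, 771 and 764 in KOPN-8. The edited libraries were above the controls in both lines, but in 697 the gap from the highest control to the lowest edited library was a few CPM. PAX5 rose in KOPN-8, by a log2 change of 0.44 (SE 0.0631, edgeR adjusted p = 6.66e-06), or 35.7%. In 697 the log2 change was 0.05 (95% interval -0.07 to 0.17, edgeR adjusted p = 0.704). The changes differed by 0.39 on the log2 scale (SE 0.0892, edgeR adjusted p = 0.00246). The controls of the lines overlapped, at 581 ± 15.3 and 570 ± 29.8 CPM (SD, n = 3), and differed by -0.03 (95% interval -0.15 to 0.10).

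TCF3, on chromosome 19, encodes the E proteins E12 and E47. Its levels were 342, 455 and 392 CPM in control 697 and 371, 437 and 354 CPM in edited 697. They were 800, 738 and 791 CPM in control KOPN-8 and 746, 699 and 729 CPM in edited KOPN-8. Edited and control libraries overlapped in both lines, and in both groups of 697 the library numbered 2 was the highest, by log2 deviations of 0.21 and 0.18 from its group. The log2 change was -0.03 (95% interval -0.21 to 0.14) in 697 and -0.10 (95% interval -0.27 to 0.07) in KOPN-8, with edgeR adjusted p-values of 0.897 and 0.445. TCF3 differed between the lines instead: control KOPN-8 was higher than control 697 by 0.97 (SE 0.0893, edgeR adjusted p = 1.12e-09), and no library of one line overlapped those of the other. Gene-level counts do not separate E12 from E47, nor the alleles of the gene.

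**Figure D2:**
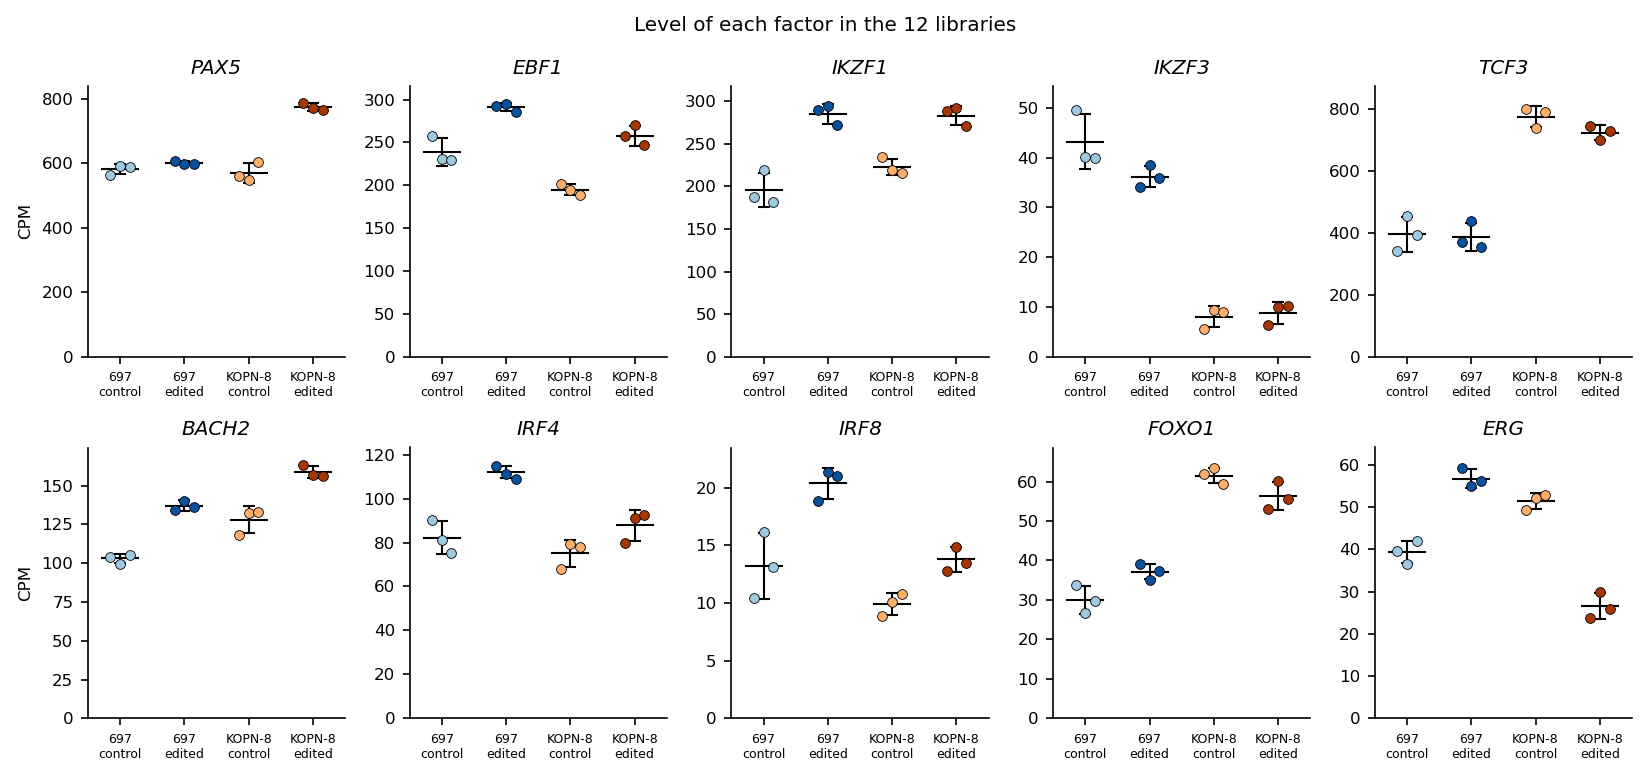
Level of each factor in CPM (y axis, from 0) in the 12 libraries, 3 per group, for control and edited 697 (light and dark blue) and control and edited KOPN-8 (light and dark brown). Points are libraries, the long bar is the mean and the whiskers are the SD. The edited libraries of EBF1, IKZF1, BACH2, IRF4 and IRF8 lie above the controls in both lines, and those of ERG lie above them in 697 and below them in KOPN-8.

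IKZF1, on chromosome 7, encodes Ikaros, a zinc-finger factor that restrains pre-B-cell proliferation. Control 697 libraries held 187, 219 and 182 CPM and edited ones 290, 294 and 272. Control KOPN-8 libraries held 234, 219 and 216 CPM and edited ones 288, 292 and 271. Every edited library lay above every control library of its line. In 697 IKZF1 rose from 196 ± 19.8 to 285 ± 11.5 CPM (SD, n = 3), a log2 change of 0.54 (SE 0.0714, edgeR adjusted p = 8.81e-06). The KOPN-8 rise, from 223 ± 9.58 CPM to a mean of 283 CPM, came to 0.35 (SE 0.0708, edgeR adjusted p = 5.23e-04). A difference of -0.20 between these changes was not called (edgeR adjusted p = 0.195), except without control replicate 2 of 697, when it was -0.28 (edgeR adjusted p = 0.0368). The edited clones overlapped in level. Control KOPN-8 was above control 697 by 0.19 (edgeR adjusted p = 0.0228) although their libraries overlapped, and that call was lost without control replicate 1 of 697 (edgeR adjusted p = 0.0774), without its replicate 3 (0.192), without control replicate 1 of KOPN-8 (0.0904) and under upper-quartile scaling (0.224). The table counts whole genes, so dominant-negative isoforms of Ikaros were not measured apart.

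IKZF3, on chromosome 17, encodes Aiolos, the Ikaros relative that appears later in B-cell development. It was at 49.6, 40.1 and 40.0 CPM in control 697 and 34.2, 38.5 and 35.9 CPM in edited 697. It was at 5.64, 9.49 and 9.08 CPM in control KOPN-8 and 6.31, 10.1 and 10.2 CPM in edited KOPN-8. The 3 edited 697 libraries lay below the 3 controls, yet the log2 change of -0.26 (95% interval -0.56 to 0.04, edgeR adjusted p = 0.353) did not pass the test. In KOPN-8 the libraries overlapped and the change was 0.10 (edgeR adjusted p = 0.763). IKZF3 also had the widest spread between replicate libraries of the 10 factors, a biological coefficient of variation of 0.132, against 0.0561 for PAX5. In both groups of KOPN-8 the library numbered 1 was the lowest, by log2 deviations of -0.47 and -0.45 from its group. The contrast between lines was larger than either change: control KOPN-8 held 0.189 of the control 697 level, a log2 difference of -2.40 (SE 0.172, edgeR adjusted p = 8.45e-10).

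IRF4, on chromosome 6, is induced by pre-B-cell receptor signals and turns on light-chain rearrangement. Its level was 90.2, 81.3 and 75.1 CPM in control 697 and 115, 111 and 109 CPM in the edited clone. For KOPN-8 the controls read 67.8, 79.3 and 77.9 CPM and the edited libraries 79.8, 91.1 and 92.4 CPM. The groups were apart in both lines, by less than 1 CPM in KOPN-8. There the library numbered 1 was the lowest of its group among controls and edited libraries, by log2 deviations of -0.14 and -0.13. In 697 IRF4 rose by a log2 change of 0.45 (SE 0.0803, edgeR adjusted p = 4.78e-04), and in KOPN-8 by 0.22 (SE 0.0801, edgeR adjusted p = 0.0387). The KOPN-8 call was lost in 4 fits that left out 1 library: control replicate 1 (edgeR adjusted p = 0.227), control replicate 3 (0.0535), edited replicate 2 (0.126) and edited replicate 3 (0.144). The controls of the lines differed by -0.13 (edgeR adjusted p = 0.149), a difference that was called under upper-quartile scaling (-0.22, edgeR adjusted p = 0.0188) and without control replicate 3 of 697 (-0.21, edgeR adjusted p = 0.0354).

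IRF8, on chromosome 16, works beside IRF4 in pre-B cells and also directs myeloid cell fate. Counts were lower here: 10.4, 16.2 and 13.1 CPM in control 697 and 18.9, 21.4 and 21.0 CPM in edited 697. KOPN-8 controls held 8.90, 10.1 and 10.8 CPM, and its edited libraries 12.8, 14.9 and 13.5 CPM. All edited libraries were above the controls of their line. In 697 the log2 change of 0.62 (SE 0.134, edgeR adjusted p = 0.00297) had the highest value among the 10 factors. In KOPN-8 IRF8 rose by 0.46 (SE 0.138, edgeR adjusted p = 0.0133), a call lost without control replicate 1 (edgeR adjusted p = 0.0719) or edited replicate 2 (0.0581). Control KOPN-8 was below control 697 by -0.41 (edgeR adjusted p = 0.0107), with overlapping libraries, and this fell short without control replicate 2 of 697 (-0.23, edgeR adjusted p = 0.143) or control replicate 1 of KOPN-8 (-0.34, edgeR adjusted p = 0.0567).

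BACH2, on chromosome 6, is a repressor at MARE sites that guards the pre-B-cell receptor checkpoint. Its control libraries were at 104, 99.2 and 105 CPM in 697 and at 118, 132 and 133 CPM in KOPN-8. The edited libraries were at 134, 140 and 136 CPM in 697 and at 163, 157 and 156 CPM in KOPN-8. Groups did not overlap in either line. BACH2 rose by a log2 change of 0.41 (SE 0.0659, edgeR adjusted p = 1.22e-04) in 697 and of 0.31 (SE 0.0646, edgeR adjusted p = 6.35e-04) in KOPN-8. KOPN-8 was the higher line among controls, by 0.31 (edgeR adjusted p = 1.52e-04), and its edited libraries were all above the edited libraries of 697.

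FOXO1, on chromosome 13, drives RAG gene expression when growth signals fall. It read 33.7, 26.6 and 29.8 CPM in control 697 and 39.1, 35.0 and 37.4 CPM in the edited clone. In KOPN-8 the controls read 62.0, 63.3 and 59.3 CPM and the edited clone 53.0, 60.1 and 55.6 CPM. The edited libraries were all higher in 697, and the groups overlapped in KOPN-8. In 697 FOXO1 rose by a log2 change of 0.31 (SE 0.0901, edgeR adjusted p = 0.0289). That call was lost in a fit on the 697 libraries alone (edgeR adjusted p = 0.101) and without control replicate 2 (0.159), control replicate 3 (0.0799), edited replicate 1 (0.114) or edited replicate 3 (0.0670). In KOPN-8 the change was -0.13 (95% interval -0.29 to 0.03, edgeR adjusted p = 0.261). The difference between the changes, -0.44 (SE 0.122, edgeR adjusted p = 0.0112), was called, with adjusted p-values of 0.00131 to 0.0389 over its 20 alternatives. Control KOPN-8 held 2.05 times the control 697 level (log2 difference 1.04, edgeR adjusted p = 1.12e-10).

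ERG, on chromosome 21, changed in opposite directions. Control 697 held 39.6, 36.5 and 41.9 CPM and its edited clone 59.3, 55.1 and 56.1 CPM. Control KOPN-8 held 49.3, 52.2 and 52.8 CPM and its edited clone 23.8, 30.0 and 26 CPM. No library of an edited clone overlapped its controls in either line. The log2 change was 0.53 (SE 0.0853, edgeR adjusted p = 1.22e-04) in 697 and -0.96 (SE 0.0865, edgeR adjusted p = 5.13e-09) in KOPN-8, where the edited clone kept 0.515 of the control level. The changes differed by -1.49 (SE 0.122, edgeR adjusted p = 2.01e-09). Calls in opposite directions in the lines were made for 1.80% of all genes tested. The order of the lines turned over with it: control KOPN-8 was above control 697 by 0.39 (edgeR adjusted p = 2.37e-04), and the edited KOPN-8 libraries were all below the edited 697 libraries.

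Between the control lines, 8 of the 10 factors were called, 5 higher and 3 lower in KOPN-8. Of all genes tested 73.3% were called, 36.6% higher and 36.7% lower, so the share of the factors was near the background. Control libraries of the lines did not overlap for 6 factors, where 76.3% of all genes tested did not, and edited libraries for 9, where 75.1% did not. The 2 not called were PAX5 and IRF4. These values use the same control libraries as the changes above, with 1 line on each side.

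Per kilobase of exon, the only scale on which one gene is set against another here, TCF3 and PAX5 led in every group. In control 697 TCF3 stood at 69.9 ± 9.99 and PAX5 at 67.4 ± 1.78 CPM per kilobase (SD, n = 3), and these neighbours in the order overlapped. EBF1 followed at 45.3 and IKZF1 at 24.1, then IRF4 at 15.4, BACH2 at 11.1, ERG at 7.30, FOXO1 at 5.23, IKZF3 at 4.32 and IRF8 at 3.15 CPM per kilobase. In that order only TCF3 with PAX5 and FOXO1 with IKZF3 overlapped between neighbours. In control KOPN-8 TCF3 led alone at 137 ± 5.90 CPM per kilobase, PAX5 stood at 66.2 ± 3.46, IRF4 and BACH2 overlapped at 14.1 and 13.8, and IKZF3 was last at 0.806. ERG was at 9.55 CPM per kilobase in control KOPN-8 and 4.94 in its edited clone. Exon lengths came from another annotation than the counts, so the order is approximate.

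**Figure D3:**
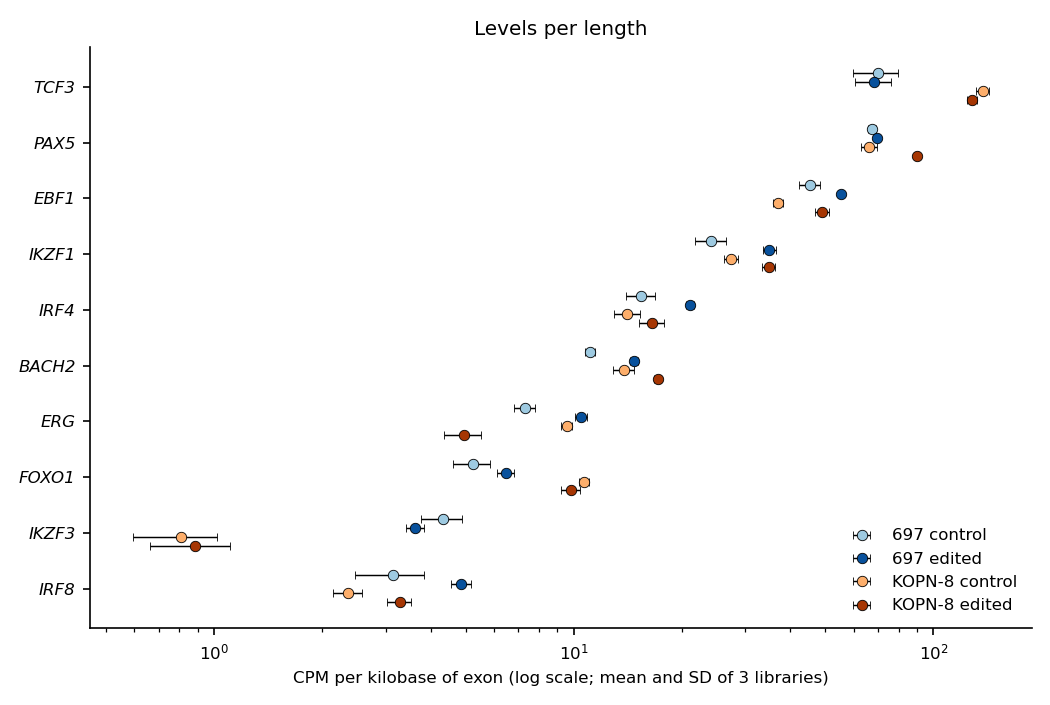
Level per length of each factor, in CPM per kilobase of exon on a log axis (x), as mean and SD of 3 libraries in each of the 4 groups. TCF3 and PAX5 lie furthest right, and IKZF3 is split by line, at 4.32 in control 697 and 0.806 in control KOPN-8.

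Relatives of the factors were then set beside them. Of all genes tested, 4.85% were called higher and 4.60% lower in 697 by edgeR, and 11.5% and 17.2% in KOPN-8. The 3 other Ikaros genes were not called in 697 by edgeR or DESeq2, and 0 had an unadjusted p under 0.05. In KOPN-8 IKZF4 rose by a log2 change of 0.55 (edgeR adjusted p = 0.0155) and IKZF5 fell by 0.31 (edgeR adjusted p = 0.0233). IKZF2, encoding Helios, was not called in either line but was higher in control KOPN-8 than in control 697 by 2.80, at 395 ± 26.4 against 57.0 ± 7.14 CPM (SD, n = 3).

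Among E proteins and their ID inhibitors, which bind E proteins and keep them off DNA, 1 of 5 tested rose in 697 by edgeR and 2 by DESeq2, TCF12 being the other. None was called in KOPN-8 by edgeR, where 1 had an unadjusted p under 0.05 and 1 was called by DESeq2. The riser was TCF4, with a log2 change of 0.27 (edgeR adjusted p = 0.00577) in 697 and of 0.16 (edgeR adjusted p = 0.0589) in KOPN-8. TCF12, encoding the E protein HEB, had changes of 0.22 (edgeR adjusted p = 0.0504) and -0.14 (edgeR adjusted p = 0.136), neither called by edgeR, that differed by -0.36 (edgeR adjusted p = 0.0102). ID2 averaged 0.173 CPM in control 697 and 56.8 CPM in control KOPN-8, and TCF12 211 and 1132 CPM. Both TCF12 and TCF4, like TCF3, were called higher in control KOPN-8 than in control 697.

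Among IRF and ETS partners, 7 of 8 were called higher in control KOPN-8, where 36.6% of all genes tested were, with a median log2 difference of 1.52 against -0.01 over all genes tested. SPI1 and SPIB, the ETS factors with which IRF4 and IRF8 share DNA sites, were at 0.136 and 1.31 CPM in control 697 and at 63.2 and 91.0 CPM in control KOPN-8. None of the 8 was called in edited 697 by edgeR or DESeq2, and 2 had an unadjusted p under 0.05, 1 in each direction. In edited KOPN-8, 2 rose and 2 fell, among them SPIB (0.49, edgeR adjusted p = 4.66e-04), IRF2 (-0.20, edgeR adjusted p = 0.0276) and IRF5, which went from 22.8 ± 2.45 to 8.74 ± 0.135 CPM (-1.38, edgeR adjusted p = 9.28e-08).

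Of the small MAF partners and BACH1, MAFK alone was called in an edited clone, rising by 0.43 (edgeR adjusted p = 2.60e-04) in KOPN-8. In the FOXO family FOXO4 alone was called, falling by 0.49 (edgeR adjusted p = 0.0234) in 697. FLI1, the ETS factor closest to ERG, had a log2 change of 0.07 (edgeR adjusted p = 0.604) in 697 and 0.25 (edgeR adjusted p = 0.00514) in KOPN-8. EBF2, EBF3 and EBF4 had 0 counts in all 6 KOPN-8 libraries. Set against a floor of 3 counts over a group, EBF3 was at least 496-fold higher, EBF4 at least 125-fold and EBF2 at least 27.6-fold higher in control 697. EBF4 fell in edited 697, from 7.69 ± 1.07 to 3.52 ± 1.21 CPM (SD, n = 3; log2 change -1.13, edgeR adjusted p = 0.00391).

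**Figure D4:**
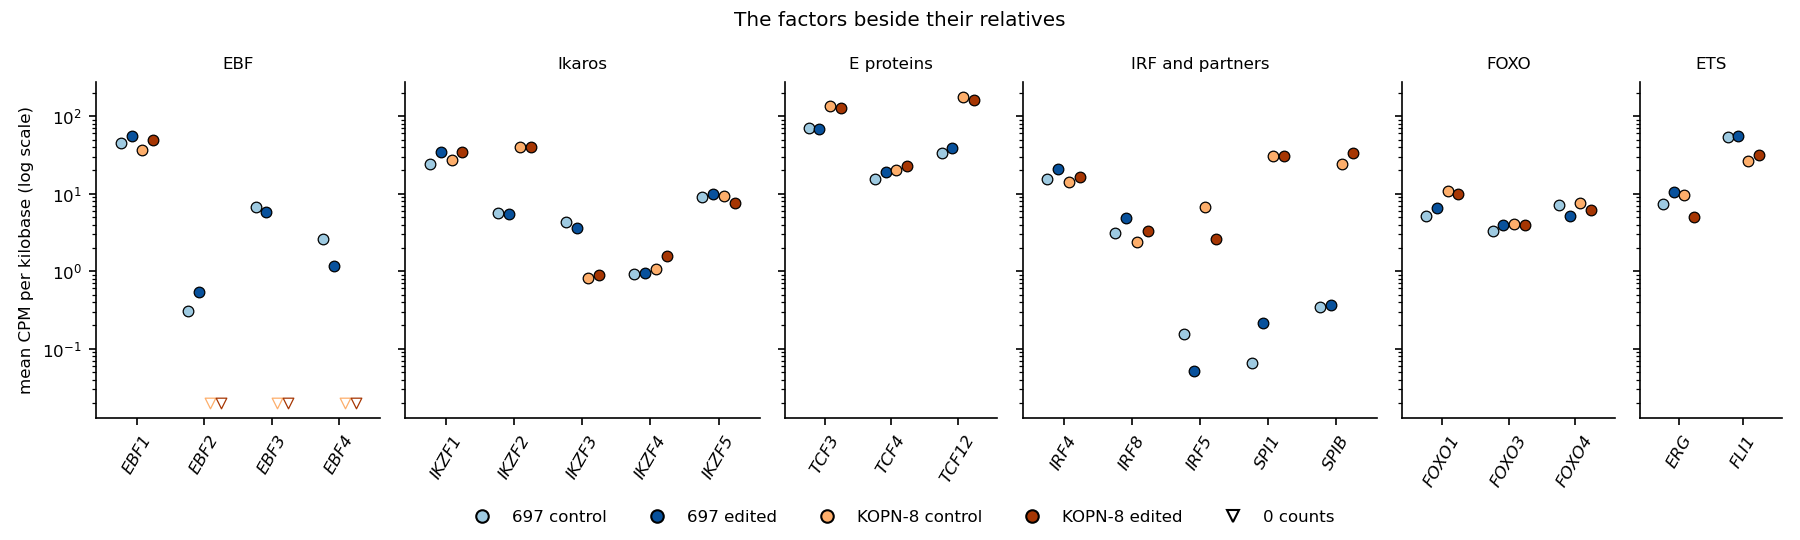
Mean level per length, in CPM per kilobase of exon on a log axis (y), of the factors and their relatives, grouped by family, in the 4 groups (colours). Open triangles at the foot mark 0 counts. EBF2, EBF3 and EBF4 lie at 0 counts in KOPN-8, and SPI1 lies at 30.6 in control KOPN-8 against 0.0656 in control 697.

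In a list of 18 other B-lineage factors, 4 rose and none fell in 697 by edgeR (DESeq2 called 4 higher and 1 lower, and 2 fell at an unadjusted p under 0.05), with a median log2 change of 0.05. In KOPN-8 4 rose and 5 fell (median -0.03). The edgeR shares over all genes tested were 4.85% higher and 4.60% lower in 697, and 11.5% and 17.2% in KOPN-8. ELF1 (0.33, edgeR adjusted p = 9.87e-04), LEF1 (0.40, edgeR adjusted p = 0.00125) and ETV6 (0.40, edgeR adjusted p = 0.00196) rose in 697. ELF1 rose in KOPN-8 as well (0.17, edgeR adjusted p = 0.0391), and LEF1 was not called there (-0.01, edgeR adjusted p = 0.942). ETV6, an ETS repressor, fell in KOPN-8 (-0.52, edgeR adjusted p = 1.87e-05), as ERG did, and ETS1 rose there (0.60, edgeR adjusted p = 2.57e-05). BCL11A, a zinc-finger factor needed for lymphoid development, fell in KOPN-8 from 16.1 ± 1.29 to 6.95 ± 0.910 CPM (-1.21, edgeR adjusted p = 5.46e-08).

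Taken over the lists and both lines, known target genes did not all move one way. Their counts stand beside edgeR shares over all genes tested of 4.85% higher and 4.60% lower in 697. In KOPN-8 those shares were 11.5% and 17.2%. Of 17 tested genes that PAX5, EBF1 or TCF3 are known to activate, 4 rose and 2 fell in 697 by edgeR (median log2 change 0.05), and 8 rose and 3 fell in KOPN-8 (median 0.07). DESeq2 gave 4 and 2 in 697 and 8 and 5 in KOPN-8, and at an unadjusted p under 0.05 edgeR gave 4 and 4, and 8 and 5. RAG1, which encodes the recombinase subunit that cuts immunoglobulin genes, rose from 261 ± 33.6 to 546 ± 20.7 CPM in 697 (1.07, edgeR adjusted p = 1.01e-09) and fell from 262 ± 10.9 to 108 ± 9.27 CPM in KOPN-8 (-1.28, edgeR adjusted p = 1.47e-11). BLK, a B-cell kinase, rose in KOPN-8 from 2.03 ± 0.182 to 17.3 ± 3.85 CPM (3.09, edgeR adjusted p = 2.09e-07). CD79A, a chain of the B-cell receptor, fell in 697 (-0.49, edgeR adjusted p = 0.00106), as did NEDD9 (-0.94, edgeR adjusted p = 1.16e-04).

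Of 9 genes that PAX5 is known to repress, 4 had enough counts to be tested and 1 fell in each line: NOTCH1 in 697 (-0.45, edgeR adjusted p = 3.80e-04) and EMB in KOPN-8 (-0.43, edgeR adjusted p = 6.98e-05). For this list and the next 2, the same shares over all genes apply: 4.85% higher and 4.60% lower in 697, 11.5% and 17.2% in KOPN-8. Of 16 FOXO targets, 5 rose and none fell in 697 by edgeR and by DESeq2, with a median of 0.16, and at an unadjusted p under 0.05 edgeR gave 8 and 0. In KOPN-8 3 rose and 6 fell by either tool, with a median of -0.08. The named genes there were RAG1, CCR7 (1.22, edgeR adjusted p = 2.85e-05) and BLNK (0.37, edgeR adjusted p = 0.00207) in 697, and RAG1, SESN1 (-0.97, edgeR adjusted p = 6.04e-09) and PIK3IP1 (-1.22, edgeR adjusted p = 6.95e-08) in KOPN-8. RAG1, RAG2 and BLNK stand in both lists. Of 7 tested genes that BACH factors repress, 1 rose in each line, SLC7A11 in 697 (1.90, edgeR adjusted p = 1.80e-04) and GCLM in KOPN-8 (0.77, edgeR adjusted p = 4.56e-06), and none fell by edgeR or DESeq2. At an unadjusted p under 0.05, edgeR gave 2 higher and 2 lower in 697, and 3 higher and 0 lower in KOPN-8. BACH2 itself had risen in both lines, and a link to these genes was not tested.

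The genes whose profile over the 12 libraries was nearest each factor were found by the root mean square difference of centred log2 CPM. TCF3 had PPP1R18 (0.0581) and PLXNB2 (0.0674), PAX5 had METTL23 (0.0580) and CDKN2AIP (0.0661), and BACH2 had the E protein gene TCF4 (0.0903) and ARID5B (0.0948). IRF4 was nearest RNF145 (0.0790) and ZNF613 (0.0950), EBF1 MAN2A1 (0.0842) and FAM217B (0.0882), and FOXO1 XRCC4 (0.0907) and DCK (0.0913). Larger distances stood for IKZF1, with ZNF830 (0.114) and SGO2 (0.124), for IKZF3, with VEGFA (0.159) and AC244033.2 (0.230), for ERG, with STAU2 (0.165) and CLCN5 (0.165), and for IRF8, with BIN1 (0.198) and PJA2 (0.202). Distances were not scaled to a factor's own spread over the libraries, an SD of 1.15 for IKZF3 but 0.182 for PAX5. Their order therefore does not rank how close the matches are. Among the factors themselves the nearest pairs were EBF1 with IRF4 (0.125) and IKZF1 with BACH2 (0.145). The farthest from any other were IKZF3, 0.978 from IRF8, and ERG, 0.432 from IRF4, where ERG's own SD was 0.433.

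Genes beside a factor on its chromosome were compared with it, in the gene order of the GRCh38 annotation, 10 tested genes on either side (12 in all for IRF4, near the end of its chromosome). In KOPN-8 all 20 neighbours of ERG, from DOP1B to C2CD2, had a higher log2 change than ERG; the lowest was -0.75 and the median 0.08. In 697, 1 of the same 20 was above ERG, and the median was 0.06. None of the 20 neighbours of BACH2 was above it in 697, where they ran from -0.42 to 0.31, and none of the neighbours of IRF4 or IRF8 was above it in KOPN-8. For the 6 remaining factors the medians of the neighbours lay between -0.14 and 0.12 in 697 and between 0.00 and 0.17 in KOPN-8, PAX5 (-0.02 in KOPN-8) excepted. Genes whose annotated span overlaps that of a factor had few counts. LINC00598, which overlaps FOXO1, had 100 counts over all libraries, or 1.17% of those of FOXO1. RNU6-1223P at TCF3 had 96 counts and the antisense gene AC124014.1 at IKZF1 had 17. LINC00598 and RNU6-1223P also stand among the neighbours of these factors.

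**Figure D5:**
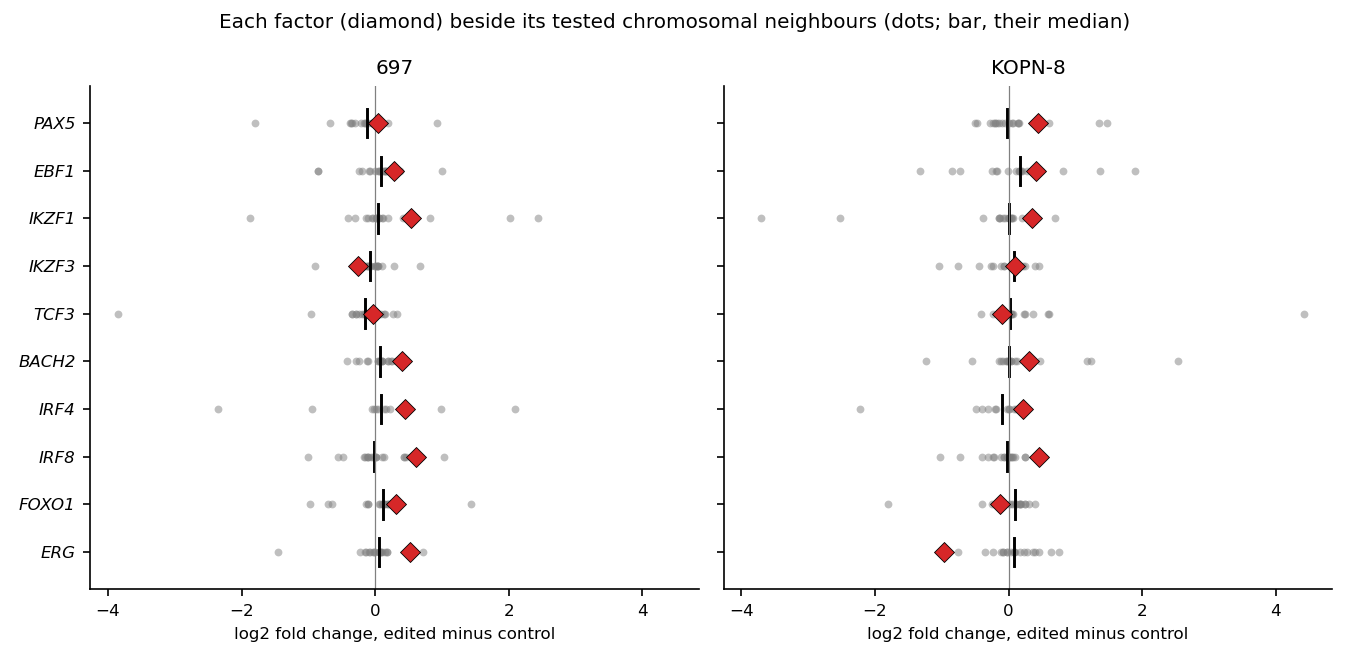
Log2 fold change, edited minus control (x axis), of each factor (red diamond) and of its tested chromosomal neighbours (grey dots, with a black bar at their median), in 697 and KOPN-8. The diamond of ERG lies at -0.96 in KOPN-8, left of all 20 of its neighbours, whose median is 0.08.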

How the data were processed

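Trimmomatic, STAR, DESeq2 and the hg19 build are named in the submitters' processing notes. Tool versions, read counter, strand setting and annotation: not given in the sources used here. Whole-number counts per gene symbol, deposited by the authors, served for all results but 1 alternative. That one used their deposited normalized signal, which equals the counts times 1 factor per library, as was checked. Groups came from the labels.

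The fit used edgeR 4.0.16 in R 4.3.3, with TMM scaling, filterByExpr, the robust quasi-likelihood F test, and 1 mean for each of the 4 groups of the 12 libraries, after the steps had been tested on simulated data. Adjustment was by Benjamini-Hochberg across the 15218 genes tested, with a threshold of 0.05 for a call. Standard errors and 95% intervals derive from the change and its F statistic. A count of 0 allows 3 counts, or 0.159 to 0.292 CPM in a library, and such floors cover counting error only. The chi-square per degree of freedom between replicate libraries, 2.74 to 9.78, exceeded sampling noise.

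The members and lists were chosen with earlier results of these data known. All 10 members were named, with up to 3 called genes of smallest p per list, the 2 nearest profiles per member, genes overlapping a member, and HOXA9. Results on some genes under this rule are not reported here. Markers and further list genes were named with their values in view. Symbols were matched to GENCODE on GRCh38 for lengths and gene order (96.2% of tested genes), and to RefSeq promoters (9 of 10 members).

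Deviations of same-numbered 697 libraries correlated over genes at 0.105, 0.207 and 0.104, all above the threshold of 0.1 for taking them as paired. This rests on the data alone: with a prior count of 1 in place of 2 the values were 0.0841, 0.17 and 0.0861. KOPN-8 gave 0.0508, 0.0362 and 0.0743. Alternatives were other scalings, filters, tests and fits, a replicate block, and leaving out each library.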

Additional observations from a re-analysis of the deposited data

Results flagged for a closer look

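For 3 of the 10 factors the change in KOPN-8 differed from the change in 697 by edgeR's test of the difference itself, on the log2 scale and as KOPN-8 minus 697: PAX5 by 0.39 (adjusted p = 0.00246), FOXO1 by -0.44 (0.0112) and ERG by -1.49 (2.01e-09). The same test picked out these named genes of the lists. Among regulators they were IKZF5 at -0.44, TCF12 at -0.36, MAFK at 0.63, ETV6 at -0.93, BCL11A at -1.06 and XBP1 at -0.62, with adjusted p-values of 0.0305, 0.0102, 4.05e-04, 1.78e-06, 2.08e-05 and 1.46e-04. Among target genes and markers they were RAG1 at -2.34, NEDD9 at 1.89, NOTCH1 at 0.43, CCR7 at -2.12, SESN1 at -1.13, GCLM at 1.06, MME at -1.70 and DNTT at -2.56. RAG1, NEDD9, CCR7, MME and DNTT, like ERG and ETV6, were called in opposite directions in the lines. DNTT went from 2.02 to 0.402 CPM in KOPN-8 and from 1966 to 2441 CPM in 697.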

How the results depend on the processing

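Of 650 recomputed values for the 40 log2 changes of the factors, 623 kept their direction and side of the threshold. The 17 that lost a call and the 3 that gained one stand beside their genes. The 7 that changed sign were never called, and each came from leaving out 1 library. TCF3 in 697 ranged from -0.13 to 0.08, being 0.08 with control replicate 2 left out and 0.03 with edited replicate 3 left out. IKZF3 in KOPN-8 ranged from -0.08 (control replicate 1 left out) to 0.31, and was -0.03 with edited replicate 3 left out. The TCF3 difference ranged from -0.18 to 0.05 (697 edited replicate 2), and was 0.03 for 697 control replicate 1. PAX5 between controls ranged from -0.06 to 0.01 (KOPN-8 control replicate 2) over these omissions, and was -0.12 under upper-quartile scaling, not called either. Over the same omissions 6 to 7 factors were called in 697, 5 to 7 in KOPN-8, 3 to 4 for the difference and 6 to 8 between controls. Of all genes, 1061 to 1473, 3422 to 3756, 2440 to 3101 and 10644 to 10950 were called.

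With the replicate block, which pairs same-numbered libraries, 2319 genes were called in 697 (1156 higher) against 1438 without it. It gave 7, 7, 3 and 8 factors, as without it, and changed no call of a factor. Upper-quartile scaling moved the median of all genes between controls from -0.01 to -0.10. Depth limits IKZF3 in KOPN-8 and IRF8 most, at 5.64 to 21.4 CPM.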
